A study of Mus musculus with 4 samples.

Results

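The BMP ligands, antagonists and targets described here were 10 genes, *Bmp2*, *Bmp4*, *Bmp7*, *Nog*, *Fst*, *Id1*, *Id2*, *Id3*, *Smad6* and *Smad7*, taken by symbol from the 23420 genes of each count file, and all 10 were found. They were measured by RNA-seq in cervical motor neurons (MNs) made from mESCs of the E14 mouse embryonic stem cell line, either WT or *Patz1* -/- (*Patz1* KO). Both genotypes went through the same differentiation as embryoid bodies, with 1 µM retinoic acid and 0.5 µM SAG, an agonist of the Hedgehog pathway, added from day 2. The *Patz1* KO cells were made by CRISPR editing, more than 1 clone was derived in the study, and the clone behind each library is not given in the sources used here. The sample titles name ESCs while the source and cell type fields name MNs, and neuronal genes were at high levels in all 4 libraries. Each genotype had 2 libraries, from separate differentiations, and the total count was 14769104 and 15728158 in WT against 23881522 and 17402342 in *Patz1* KO. *Patz1*, which encodes a zinc finger transcription factor, gave 92.9 ± 1.96 CPM (counts scaled to the normalized library size) in WT and 45.1 ± 3.56 CPM in *Patz1* KO (SD, n = 2 each). Its log2 fold change, *Patz1* KO over WT, was -1.04 with an SE of 0.095 (edgeR adjusted p = 1.1e-07), so *Patz1* RNA was lower but still detected in the *Patz1* KO libraries, and its exons overlap *Gm11944* and the antisense gene *Gm12592*.

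BMPs are secreted dimers of the TGF-beta family that bind paired type I and type II serine/threonine kinase receptors, which phosphorylate Smad1, Smad5 and Smad9. These join Smad4 and switch on targets that include the *Id* genes and the inhibitory Smads, and the inhibitory Smads dampen the pathway in turn. In the developing spinal cord, BMPs from the roof plate and the surface ectoderm pattern dorsal cell types, in opposition to Sonic hedgehog from the ventral midline, and secreted antagonists such as Noggin limit their reach.

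The largest differences lay in the ligand *Bmp4*, the antagonist *Fst* and the targets *Id1* and *Id3*, all lower in *Patz1* KO MNs. *Nog* and *Smad7* were higher. *Bmp2*, *Bmp7*, *Id2* and *Smad6* did not pass the test. All 10 members passed the filter on low counts, and 6 of the 10 passed edgeR's quasi-likelihood test at an adjusted p below 0.05 (Benjamini-Hochberg over 14269 genes), 4 lower and 2 higher. Over all genes tested, 47.9% passed, 23.8% lower and 24.1% higher, so a count of 6 of 10 was near the background of this comparison. Both libraries of a genotype lay above both of the other for 8 of the 10 members, against 74.2% of all genes tested. The median log2 fold change, *Patz1* KO over WT, was -0.71 over the members and -0.0014 over all genes tested, and the median absolute log2 fold change over all genes was 0.34. With 2 libraries per genotype, the smallest p that an exact permutation test can give for 1 gene is 0.333, so the tests rest on edgeR's estimate of the spread across genes. A lower value in these mixed cultures could come from fewer cells of a type or from less RNA per cell, which cannot be told apart in bulk RNA.

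**Figure D1:**
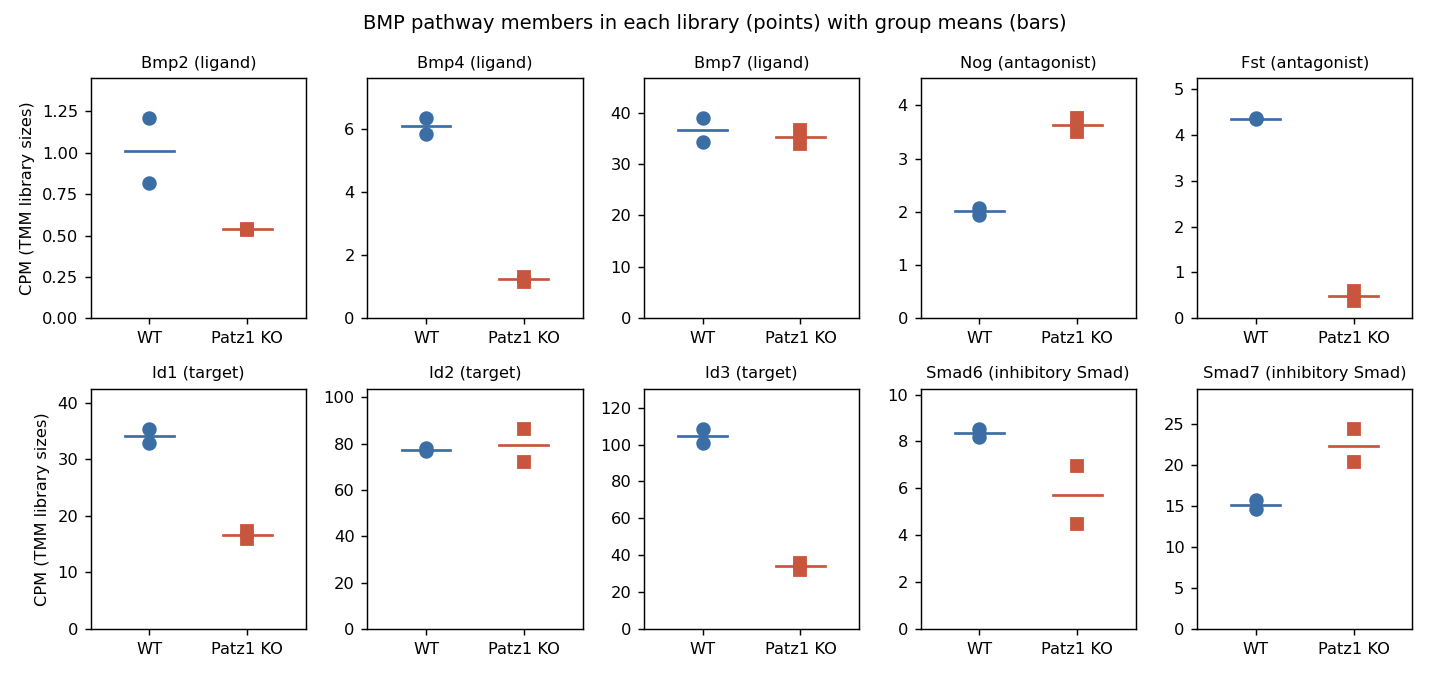
Level of each member in each library, in CPM, with WT and *Patz1* KO libraries as separate points. The *Bmp4*, *Fst*, *Id1* and *Id3* points of *Patz1* KO lie below both WT points, those of *Nog* and *Smad7* lie above them, and those of *Bmp7* and *Id2* overlap.

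Promoter sequences were read from RefSeq on GRCm38.p6 for the 250 bases before the RefSeq start of *Bmp4*, *Id2*, *Id3* and *Smad6*. These were the 4 members with a promoter sequence in the reference used, so the other members are not shown. A palindrome and a short element that Smad complexes are known to bind, GGCGCC and CAGAC, and a G-rich stretch, GGGNGGG, were searched on both strands, and overlapping matches were each counted. Stretches outside annotated exons are printed 5′ to 3′ on the strand of the gene, in lower case with matches in capitals, and a match to the opposite strand appears as its reverse complement. For *Id2* and *Id3* the RefSeq start differs from the GENCODE start, and both windows lie inside the GENCODE gene positions given below. The lines give *Bmp4* at chr14:46390670-46390919 (minus strand), the far end of the *Id2* window at chr12:25096254-25096342 (minus strand) and *Smad6* at chr9:64022060-64022309 (minus strand).
Bmp4: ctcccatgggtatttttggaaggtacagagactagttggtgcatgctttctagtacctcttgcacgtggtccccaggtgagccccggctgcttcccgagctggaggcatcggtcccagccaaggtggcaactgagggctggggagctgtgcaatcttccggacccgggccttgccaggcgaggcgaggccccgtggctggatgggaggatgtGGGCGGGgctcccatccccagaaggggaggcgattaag
Id2: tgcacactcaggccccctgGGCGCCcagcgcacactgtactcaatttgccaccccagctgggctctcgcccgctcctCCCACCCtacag
Smad6: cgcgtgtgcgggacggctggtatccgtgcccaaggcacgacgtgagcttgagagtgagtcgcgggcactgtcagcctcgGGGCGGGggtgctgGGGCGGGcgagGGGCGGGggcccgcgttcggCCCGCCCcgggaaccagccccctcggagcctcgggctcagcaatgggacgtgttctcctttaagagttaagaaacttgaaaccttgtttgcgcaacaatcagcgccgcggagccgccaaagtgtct

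The whole *Id3* window lies in an exon of the GENCODE annotation, so only 25-base windows around its matches are given, on the plus strand. They lie at chr4:136143645-136143669, chr4:136143718-136143742 and chr4:136143744-136143768. The first and the last hold CAGAC on opposite strands, and the middle window holds a pair of G-rich matches that overlap.
Id3 CAGAC: tcctcggcgtCAGACcagcctaagg
Id3 GGGNGGG: gcggtgcccaGGGCGGGCGGGggtg
Id3 GTCTG: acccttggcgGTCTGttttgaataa

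Of the 4 windows, only that of *Id3* held CAGAC, with 2 matches, and only that of *Id2* held GGCGCC, with 1 match. GGGNGGG gave 1 match in *Bmp4*, 2 in *Id2*, 2 in *Id3* and 4 in *Smad6*. Over 32841 RefSeq windows of this length, 9.59% held GGCGCC, 42.2% held CAGAC and 44.8% held GGGNGGG. These matches describe the sequence, and binding there was not measured in the data used here.

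Among the ligands, *Bmp4* fell, while *Bmp7*, the most abundant of them, did not pass the test. *Bmp4* (chromosome 14, 46383520 to 46390669, minus strand of GRCm38) gave 87 and 101 counts in WT against 28 and 22 in *Patz1* KO, which are 5.84 and 6.35 CPM against 1.16 and 1.31 CPM. The genotypes did not overlap, and the WT mean was 4.97 times the *Patz1* KO mean by the fit. The log2 fold change was -2.31 with an SE of 0.27 (95% interval -2.88 to -1.75, edgeR adjusted p = 1.7e-06). Exons of *Bmp4* overlap the antisense gene *Gm15217*, and the strand setting of the counting is not given in the sources used here, so reads of the pair may not be separable.

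*Bmp7* (chromosome 2, 172868012 to 172940321, minus strand), a ligand of another branch of the family, gave 38.9 and 34.2 CPM in WT against 36.6 and 33.8 CPM in *Patz1* KO. Libraries of the genotypes interleaved, and the 95% interval of the log2 difference, -0.27 to 0.17, held 0 (edgeR adjusted p = 0.722). *Bmp2* (chromosome 2, 133552159 to 133562885, plus strand), the closest relative of *Bmp4*, was the rarest ligand, with 18 and 13 counts in WT against 13 and 9 in *Patz1* KO. Its values of 1.21 and 0.818 CPM in WT lay above 0.536 and 0.537 CPM in *Patz1* KO. The log2 fold change of -0.90 had an interval from -1.87 to 0.07 (edgeR adjusted p = 0.116), and at this depth no difference could be detected.

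Per kilobase of exon, which lets levels of different genes be compared, *Bmp7* stood above *Bmp4* in every library. The level of *Bmp7* over that of *Bmp4* was 3.72 and 3.01 in WT against 17.7 and 14.4 in *Patz1* KO. *Bmp4* held 20.6% and 24.4% of the summed level of the 3 ligands per kilobase in WT against 5.25% and 6.38% in *Patz1* KO. *Bmp7* held 76.7% and 73.6% in WT against 93.2% and 92.0% in *Patz1* KO. The shares of *Bmp4* and of *Bmp7* did not overlap between the genotypes. Shares of a sum depend on each other, so these are not separate results, and the level of *Bmp7* itself did not pass the test.

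The antagonists moved in opposite directions. *Fst* (chromosome 13, 114452290 to 114458951, minus strand) encodes follistatin, which binds activins most tightly and also some BMPs. It gave 65 and 69 counts in WT against 9 and 10 in *Patz1* KO, or 4.36 and 4.34 CPM against 0.371 and 0.596 CPM. Both *Patz1* KO libraries were far below both WT libraries, with a log2 fold change of -3.20 and an SE of 0.35 (95% interval -3.94 to -2.46, edgeR adjusted p = 9.2e-07), the lowest of the 10 members. Exons of *Fst* overlap the antisense gene *Gm47040*, with the same limit as for *Bmp4*.

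*Nog* (chromosome 11, 89300638 to 89302332, minus strand) encodes Noggin, which binds BMP ligands and keeps them from their receptors. It gave 29 and 33 counts in WT against 85 and 63 in *Patz1* KO, or 1.95 and 2.08 CPM against 3.51 and 3.76 CPM. The genotypes did not overlap, and the log2 fold change was 0.84 with an SE of 0.27 (95% interval 0.27 to 1.42, edgeR adjusted p = 0.0161). The call was lost with DESeq2 (adjusted p = 0.105), without the first WT library (edgeR adjusted p = 0.117) and without the second (edgeR adjusted p = 0.0893). It was also lost when the test was against an absolute log2 change of 1, and was kept under the other alternatives run.

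Set against each other per kilobase, the level of *Bmp4* over that of *Nog* was 2.26 and 2.31 in WT against 0.248 and 0.263 in *Patz1* KO. *Bmp4* transcripts were therefore above those of *Nog* in both WT libraries and below them in both *Patz1* KO libraries. The level of *Nog* over that of *Fst* was 1.21 and 1.29 in WT against 25.6 and 17.1 in *Patz1* KO. These are ratios of RNA levels and carry no test.

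**Figure D2:**
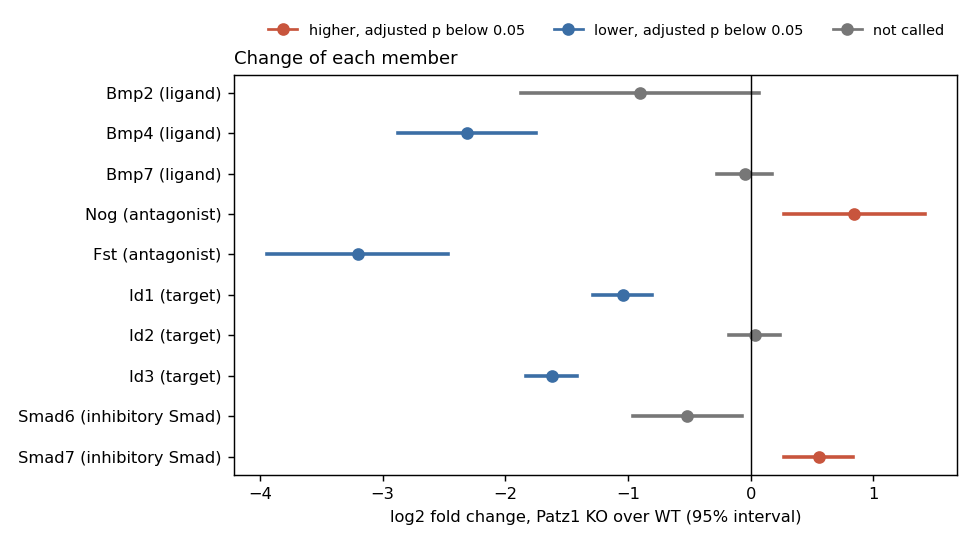
Log2 fold change of each member, *Patz1* KO over WT, with its 95% interval from edgeR's quasi-likelihood fit. The intervals of *Fst*, *Bmp4*, *Id3* and *Id1* lie below 0, those of *Nog* and *Smad7* lie above 0, and that of *Smad6* ends at -0.07 with an adjusted p of 0.0512 (edgeR).

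The *Id* genes encode helix-loop-helix proteins without a DNA-binding region, which hold other helix-loop-helix factors inactive and help to keep progenitors from differentiating. They are among the most direct read-outs of BMP signalling, although other pathways drive them too. *Id1* and *Id3* fell in *Patz1* KO MNs and *Id2* did not pass the test. *Id3* (chromosome 4, 136143497 to 136145755, plus strand) gave 1614 and 1605 counts in WT against 865 and 539 in *Patz1* KO, or 108.4 and 100.9 CPM against 35.7 and 32.1 CPM. No WT library came near a *Patz1* KO library, and the log2 fold change was -1.62 with an SE of 0.098 (95% interval -1.83 to -1.42, edgeR adjusted p = 5.11e-10).

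*Id1* (chromosome 2, 152736251 to 152737410, plus strand) gave 33.0 and 35.4 CPM in WT against 15.9 and 17.3 CPM in *Patz1* KO. The genotypes were again separate, with a log2 fold change of -1.04 and an SE of 0.11 (95% interval -1.29 to -0.80, edgeR adjusted p = 9.34e-07). *Id2* (chromosome 12, 25093799 to 25097140, minus strand) gave 78.2 and 76.8 CPM in WT against 72.3 and 86.3 CPM in *Patz1* KO. The *Patz1* KO libraries lay on either side of the WT libraries, and the interval of the log2 difference was -0.18 to 0.24 (edgeR adjusted p = 0.815).

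*Id3* held 50.0% and 47.6% of the summed level of the 3 *Id* genes per kilobase in WT against 31.5% and 26.3% in *Patz1* KO. *Id2* held 26.5% and 26.6% in WT against 46.8% and 51.9% in *Patz1* KO, and the share of *Id1* stayed between 21.7% and 25.8%. These shares also depend on each other, and the level of *Id2* itself did not pass the test. The level of *Id3* over that of *Id2* per kilobase was 1.89 and 1.79 in WT against 0.672 and 0.507 in *Patz1* KO. The leading transcript of these 3 genes therefore differed between the genotypes. The summed level of the 3 genes was 219.5 and 213.0 CPM in WT against 123.9 and 135.8 CPM in *Patz1* KO. *Id4*, a further *Id* gene listed with the other targets, did not fall. It gave 16.1 and 15.46 CPM per kilobase in WT against 17.85 and 18.65 in *Patz1* KO (log2 fold change 0.21, edgeR adjusted p = 0.0692). Exons of *Id4* overlap the antisense genes *A330033J07Rik* and *Gm49291*, with the same limit as for *Bmp4*.

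The inhibitory Smads are induced by the pathway they restrain. Smad6 acts mainly on BMP receptors and Smad7 acts on receptors of BMPs, activins and TGF-beta. *Smad7* (chromosome 18, 75367529 to 75395935, plus strand) gave 235 and 232 counts in WT against 494 and 409 in *Patz1* KO, or 15.8 and 14.6 CPM against 20.4 and 24.4 CPM. It was higher in both *Patz1* KO libraries, with a log2 fold change of 0.55 and an SE of 0.13 (95% interval 0.28 to 0.83, edgeR adjusted p = 0.00218).

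*Smad6* (chromosome 9, 63953076 to 64022059, minus strand) gave 127 and 130 counts in WT against 169 and 75 in *Patz1* KO, or 8.53 and 8.18 CPM against 6.97 and 4.47 CPM. The WT libraries were close together and the *Patz1* KO libraries were spread below them. The log2 fold change of -0.52 (95% interval -0.96 to -0.07) missed the threshold with an edgeR adjusted p of 0.0512. Without the first *Patz1* KO library it was -0.90 and without the second it was -0.25. With all 4 libraries kept *Smad6* was called under 6 other settings. These include library size alone (edgeR adjusted p = 0.0407) and the replicate block (edgeR adjusted p = 0.0137, resting on a spread shared across genes). The call thus depends on the processing, and the size of the change depends on the library. The level of *Smad7* over that of *Smad6* per kilobase was 1.31 and 1.27 in WT against 2.07 and 3.87 in *Patz1* KO.

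Ordered by level per kilobase of exon, the WT libraries ran from *Id3* (58.4 ± 2.93 CPM per kilobase, SD, n = 2) through *Id2* (31.8 ± 0.393), *Id1* (29.4 ± 1.45), *Bmp7* (9.09 ± 0.820), *Smad7* (3.36 ± 0.186), *Bmp4* (2.71 ± 0.161), *Smad6* (2.61 ± 0.0773), *Nog* (1.19 ± 0.0536) and *Fst* (0.948 ± 0.0037) to *Bmp2* (0.285 ± 0.0777). Of the neighbours in this order, only *Bmp4* and *Smad6* had libraries that overlapped. In *Patz1* KO the order was *Id2* (32.5 ± 4.07), *Id3* (18.9 ± 1.40), *Id1* (14.3 ± 0.833), *Bmp7* (8.76 ± 0.497), *Smad7* (4.95 ± 0.627), *Nog* (2.14 ± 0.104), *Smad6* (1.79 ± 0.552), *Bmp4* (0.549 ± 0.0493), *Bmp2* (0.151 ± 6.2e-05) and *Fst* (0.105 ± 0.0347), and only *Nog* and *Smad6* overlapped. The *Id* genes stood above all ligands, antagonists and inhibitory Smads in both genotypes. *Id3* changed places with *Id2*, *Bmp4* dropped below *Nog* and *Smad6*, and *Fst* became the lowest of the 10.

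**Figure D3:**
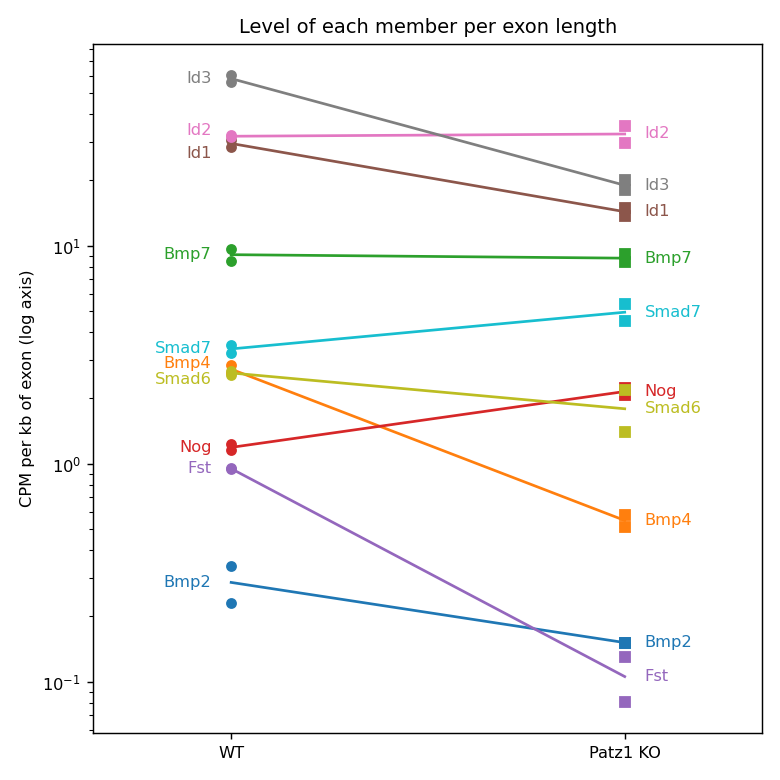
Level of each member per kilobase of exon, in CPM per kilobase on a log axis, with the genes in order of level and each library as a point. *Id3* leads in WT and *Id2* in *Patz1* KO, while *Bmp4* and *Fst* lie lower in the *Patz1* KO order than in the WT order.

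The other genes of the pathway were taken from lists of ligands, antagonists, receptors, Smads, targets, the activin branch and dorsal neural tube genes. Each count of calls below stands beside 47.9% called over all genes tested, 24.1% higher and 23.8% lower. Of 11 other BMP and GDF ligands, 5 could be tested, and of these 3 fell and none rose. The median log2 fold change of the 5 was -1.35. *Bmp5* gave 50 and 61 counts in WT against 23 and 13 in *Patz1* KO (log2 fold change -2.03, SE 0.32, edgeR adjusted p = 4.89e-05). *Bmp3*, which opposes other BMPs, gave 28 and 32 counts against 8 and 6 (-2.49, SE 0.43, edgeR adjusted p = 0.000131). *Bmp6* gave 54 and 49 counts against 44 and 28 (-0.93, SE 0.28, edgeR adjusted p = 0.0115), and *Bmp5* and *Bmp6* each overlap an antisense gene. *Bmp10*, *Bmp15*, *Gdf2* and *Gdf7*, the last a roof plate ligand, had 3 or fewer counts in every library.

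Of 17 other secreted antagonists and modulators, 12 were tested, 2 rose and 3 fell, with a median log2 fold change of -0.13. *Twsg1*, whose product binds BMPs together with chordin, gave 89.7 and 101.3 CPM in WT against 62.5 and 66.5 CPM in *Patz1* KO (log2 fold change -0.57, SE 0.095, edgeR adjusted p = 8.88e-05). *Bmp1*, a protease that cleaves chordin and not a BMP ligand despite its name, gave 101.5 and 98.2 CPM against 78.6 and 58.7 CPM (-0.54, SE 0.11, edgeR adjusted p = 0.00078). *Sost*, which encodes sclerostin, known mainly as an inhibitor of Wnt signalling, gave 28 and 36 counts against 12 and 12 (-1.80, SE 0.39, edgeR adjusted p = 0.00104). The 2 that rose, named here after their values were seen, were *Chrd*, which encodes the BMP antagonist chordin (8.93 and 7.99 CPM against 14.65 and 11.98 CPM, log2 fold change 0.66, edgeR adjusted p = 0.00265), and *Tll2*, a protease related to *Bmp1* (2.62 and 2.33 CPM against 4.95 and 4.35 CPM, 0.92, edgeR adjusted p = 0.00557). Exons of *Chrd* overlap the antisense gene *Thpo*. With 5 of 12 called, the list was not above the 47.9% of all genes tested.

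Of 12 receptors and co-receptors, 10 were tested, 2 rose and 4 fell, and the median was -0.26. Over all genes tested, 24.1% rose and 23.8% fell. The type I receptor gene *Bmpr1a* gave 187.3 and 206.2 CPM in WT against 132.7 and 132.1 CPM in *Patz1* KO (log2 fold change -0.57, SE 0.087, edgeR adjusted p = 3.57e-05), and it overlaps the antisense gene *Gm17110*. The type II receptor gene *Bmpr2* gave 53.2 and 54.3 CPM against 38.6 and 36.5 CPM (-0.52, SE 0.096, edgeR adjusted p = 0.00026). *Bambi*, a pseudoreceptor that blocks type I receptors and is itself a BMP target, gave 8.26 and 7.67 CPM against 3.51 and 3.995 CPM (-1.09, SE 0.20, edgeR adjusted p = 0.000274). The 2 that rose, also named after their values were seen, were the co-receptor genes *Rgma* (70.8 and 68.9 CPM against 99.3 and 87.6 CPM, 0.42, edgeR adjusted p = 0.00122) and *Rgmb* (42.0 and 40.9 CPM against 57.5 and 55.7 CPM, 0.45, edgeR adjusted p = 0.000819), and *Rgma* overlaps the antisense gene *A730056A06Rik*.

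All 13 Smads and intracellular regulators were tested, 3 rose and 5 fell, with a median of -0.05. The share called over all genes tested was 47.9%. *Zeb2*, a Smad-interacting repressor, fell by 0.63 on the log2 scale (SE 0.087, edgeR adjusted p = 1.17e-05), from 121.4 and 127.7 CPM to 79.9 and 81.0 CPM, and its exons overlap the antisense genes *Gm27761* and *Zeb2os*. *Ctdsp1*, a phosphatase that acts on Smads, gave 25.2 and 21.8 CPM in WT against 16.6 and 14.3 CPM in *Patz1* KO (-0.60, SE 0.13, edgeR adjusted p = 0.00112). *Tob1*, a negative regulator of BMP signalling, rose from 16.8 and 20.6 CPM to 24.1 and 32.1 CPM (0.58, SE 0.14, edgeR adjusted p = 0.0029). No gene of this list fell further than *Zeb2*, and its median lay near that of all genes tested.

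Of 13 other genes known as BMP targets, 9 were tested, 1 rose and 4 fell, with a median of -0.50. The share called over all genes tested was 47.9%. *Hey1*, a repressor of the helix-loop-helix class also driven by Notch, fell from 81.0 and 82.9 CPM to 41.0 and 38.3 CPM (log2 fold change -1.04, SE 0.094, edgeR adjusted p = 9.45e-08). *Tbx2*, a T-box repressor, fell from 8.53 and 8.87 CPM to 3.30 and 2.74 CPM (-1.51, SE 0.21, edgeR adjusted p = 1.3e-05). *Hes1*, known best as a Notch target, rose from 34.8 and 35.4 CPM to 47.8 and 50.3 CPM (0.48, SE 0.097, edgeR adjusted p = 0.000539).

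In the activin, Nodal and TGF-beta branch, to which *Fst* and *Smad7* also belong by function, 12 of 20 genes were tested. Of these 2 rose and 4 fell, with a median of -0.19, beside 47.9% called over all genes tested. Of the receptor-activated Smads of this branch, *Smad3* fell from 96.6 and 95.4 CPM to 45.8 and 40.1 CPM (log2 fold change -1.16, SE 0.096, edgeR adjusted p = 3.54e-08). *Smad2*, the other one, gave 124.8 and 133.8 CPM in WT against 126.9 and 128.6 CPM in *Patz1* KO (-0.018, SE 0.086, edgeR adjusted p = 0.883), and its libraries overlapped. *Tgfbr2*, the type II receptor for TGF-beta, gave 126 and 123 counts in WT against 55 and 46 in *Patz1* KO (-1.70, SE 0.22, edgeR adjusted p = 6.35e-06). *Inhbb*, which encodes a subunit of activin B, gave 15 and 6 counts against 101 and 55 (2.45, SE 0.38, edgeR adjusted p = 4.4e-05), the opposite direction to *Fst*.

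Dorsal neural tube genes, which mark the domains that BMPs pattern, were scarce apart from *Bhlhe22*. Of 15, only *Zic2*, *Olig3* and *Bhlhe22* passed the filter on low counts. *Zic2* gave 23 and 19 counts in WT against 8 and 10 in *Patz1* KO (log2 fold change -1.61, SE 0.46, edgeR adjusted p = 0.00797). The call for *Zic2* was lost with DESeq2, against an absolute log2 change of 1, and without the first WT or the first *Patz1* KO library, and it was not tested where at least 10 counts in every library were asked for. *Olig3* (edgeR adjusted p = 0.112) and *Bhlhe22* (edgeR adjusted p = 0.148) did not pass. *Bhlhe22*, the most abundant of the list, gave 15.71 and 17.55 CPM in WT against 14.56 and 13.48 CPM in *Patz1* KO. *Pax7*, *Atoh1*, *Wnt3a* and *Barhl1* had 3 or fewer counts in every library of both genotypes.

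**Figure D4:**
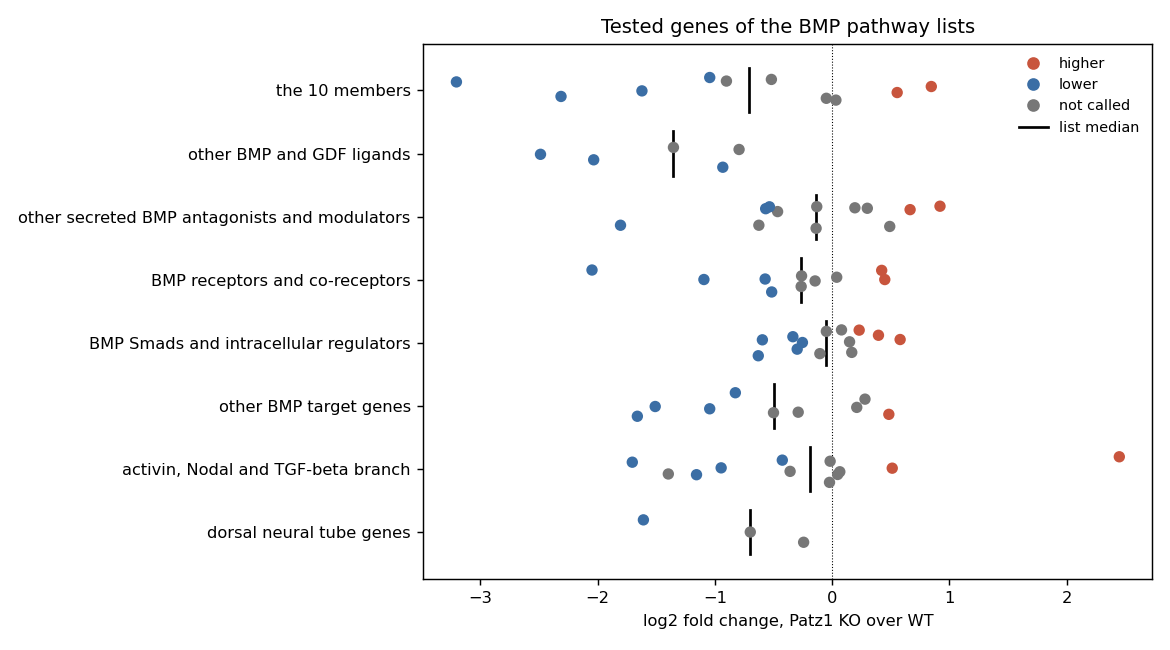
Log2 fold change, *Patz1* KO over WT, of every tested gene of the members and of the 7 pathway lists, with 1 point per gene. The median is -0.71 for the members, -1.35 for the other ligands and -0.05 for the Smads and intracellular regulators.

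Marker lists of several cell types also differed between the genotypes. Over all genes tested, 24.1% were higher and 23.8% lower, and these shares stand beside every marker count given here and below. Of 9 motor neuron markers 8 were higher in *Patz1* KO and none lower, and their summed level was 1388 and 1340 CPM in WT against 1946 and 1858 CPM in *Patz1* KO. The largest part of these sums was *Slit2* (744.8 and 740.7 CPM in WT against 914.5 and 918 CPM in *Patz1* KO, log2 fold change 0.30). *Isl1* was not called (-0.19, edgeR adjusted p = 0.0767). Markers of cells outside the neural lineage were lower. The mesoderm and mesenchyme list had 7 lower of 8 tested and 11 listed, with sums of 153 and 176 CPM in WT against 17.4 and 19.3 CPM in *Patz1* KO, and the defining marker *T* was at the detection limit in all libraries. Visceral and primitive endoderm markers had 8 lower of 10 tested and 12 listed (71.8 and 86.2 CPM against 10.9 and 11.3 CPM). *Afp* (11 and 15 counts in WT against 12 and 21 in *Patz1* KO) and *Sox7* were not called, and *Amn* and *Apoa1* were not tested.

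The surface epithelium list had 5 lower of 5 tested and 8 listed (69.4 and 69.6 CPM against 6.72 and 7.69 CPM), with *Krt5*, *Krt14* and *Trp63* at the detection limit. Endothelial markers had 5 lower of 7 tested (12.8 and 15.2 CPM against 6.72 and 4.83 CPM). Floor plate markers, which belong to the ventral midline, had 7 lower of 8 tested (1046 and 1039 CPM against 777.4 and 674.8 CPM). These shifts run beside the lower *Bmp4*, *Fst*, *Id1* and *Id3*, and their part in those results was not tested.

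Pan-neuronal markers had 4 higher and 1 lower of 8 tested, with sums of 4283 and 4036 CPM in WT against 6182 and 5874 CPM in *Patz1* KO. Neural progenitor markers had 4 higher and 3 lower of 9, and their sums overlapped between the genotypes (1351 and 1293 CPM against 1330 and 1398 CPM). Neural crest markers had 3 higher and 3 lower of 8 (85.2 and 86.2 CPM against 87.8 and 92.2 CPM). The largest part of these sums was *Sox9* (51.36 and 48.05 CPM in WT against 69.35 and 74.11 CPM in *Patz1* KO). The sums hide changes in both directions, with log2 fold changes of 2.51 for *Foxd3* and -2.93 for *Snai2*. Astrocyte markers had 3 higher of 3 tested and 6 listed (53.1 and 58.1 CPM against 141 and 139 CPM), with *Gfap* at the detection limit. Pluripotent cell markers had 2 lower of 4 tested and 8 listed (9.40 and 12.3 CPM against 6.02 and 7.99 CPM), with *Utf1* at the detection limit.

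**Figure D5:**
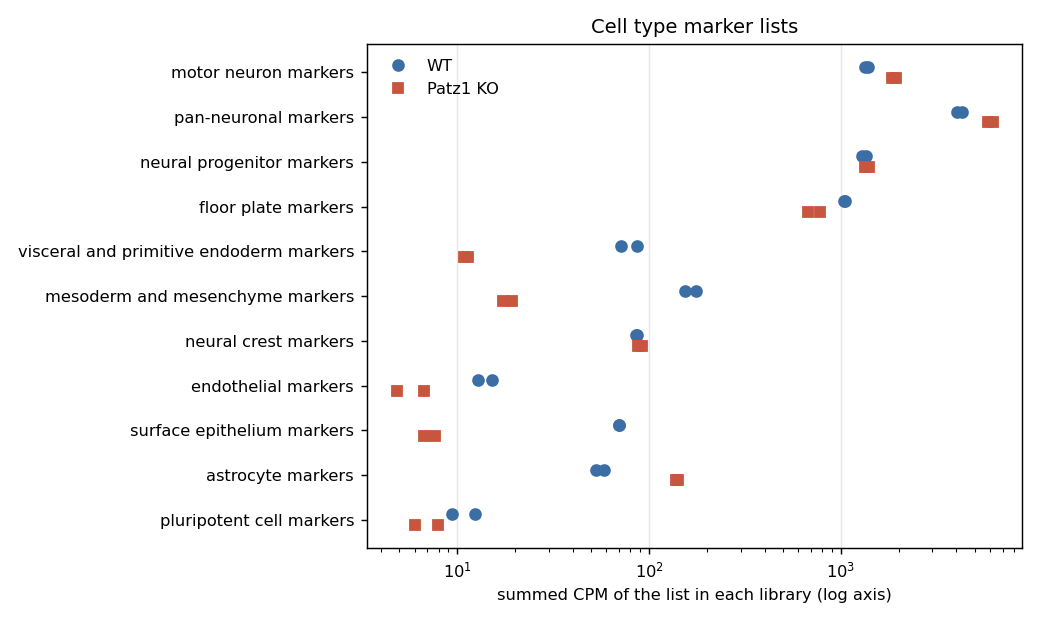
Summed level of each of the 11 marker lists in each library, in CPM on a log axis. The mesoderm and mesenchyme, endoderm and surface epithelium sums of *Patz1* KO lie far below those of WT, while the motor neuron and pan-neuronal sums lie above.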

How the data were processed

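RNA-seq counts of the 4 MN libraries were analysed, and groups were taken from the sample labels. The authors deposited raw counts per gene symbol. The libraries were stranded total RNA depleted of ribosomal RNA, reads were mapped to mm10, and the submitters' processing notes name TopHat2 2.1.1, Bowtie2 2.3.1, featureCounts 1.6.2 and DESeq2. The counting annotation and strand setting are not given in the sources used here. *Rn45s*, *Rpph1* and *Rmrp* took 6.33% to 9.65% of the counts, and the chi-square per gene between replicates, which is near 1 under sampling noise, was 10.5 in WT and 23.4 in *Patz1* KO.

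Counts were normalized with TMM, filtered with filterByExpr (minimum count 10, leaving 14269 genes) and tested with edgeR 4.0.16 (limma 3.58.1, R 4.3.3) by the quasi-likelihood test, with genotype as the only term and Benjamini-Hochberg adjustment over all genes. CPM values use the TMM library sizes, and 1 count was worth 0.0413 to 0.0671 CPM. The SE was the size of the log2 fold change over the root of its F value. Genes with 3 or fewer counts in every library were taken as at the detection limit. This limit covers counting error alone, since the reads carry no molecular identifiers. Positions, exon lengths and overlaps come from GENCODE M21 on GRCm38, where 21737 of 23420 symbols matched 1 gene by name. Promoters come from RefSeq (GRCm38.p6). Figures were drawn in Python 3.11.15 with matplotlib 3.10.9.

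The 10 members, the 7 pathway lists and the 11 marker lists were chosen with earlier results of these data known, so their counts are descriptions. The text names the members, *Patz1*, the 3 genes of each pathway list with the smallest p, genes at the detection limit and marker genes. *Chrd*, *Tll2*, *Rgma*, *Rgmb*, *Smad2* and *Id4* were added after their values were seen. Alternatives were library size alone, DESeq2's size factors, no filter, at least 10 counts in every library, DESeq2 1.42.0, robust estimation, edgeR's glmTreat against an absolute log2 fold change of 1, the replicate number as a block and leaving out each library. The *Maz* and ESC libraries and the other assays of the study were not used here.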

Additional observations from a re-analysis of the deposited data

How the results depend on the processing

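*Bmp4*, *Fst* and *Id3* kept their direction and their call under all alternatives in which they were tested, with log2 fold changes of -2.39 to -2.21, -3.52 to -2.85 and -1.70 to -1.55 with 1 library left out. *Fst* and *Bmp2* were not tested where at least 10 counts in every library were asked for. Testing against an absolute log2 fold change of 1 (glmTreat) left 718 genes called of 6836, 3 members, 0 other antagonists, 0 receptors, 0 Smads and intracellular regulators, 0 other targets, 2 genes of the activin branch and 0 dorsal genes, and *Id1* (-1.04), *Smad7* (0.55), *Nog* (0.84) and *Patz1* (-1.04) were no longer called. This setting tests for a larger change, so fewer calls follow from its construction. With DESeq2, 5 Smads and intracellular regulators, 3 other targets and 0 dorsal genes were called, and *Nog* (0.86) was not, and with at least 10 counts in every library 0 dorsal genes were called. *Smad6* was called with DESeq2's size factors (-0.52), library size alone (-0.54), no filter (-0.49), at least 10 counts in every library (-0.52), robust estimation (-0.52) and the replicate block (-0.55), with adjusted p from 0.0137 to 0.0451. With 1 library left out, 4521 genes (without the second WT library) to 7816 genes were called. The same fits called 5 to 7 members, 4 to 8 Smads and intracellular regulators, 3 to 6 other targets and 0 to 1 dorsal genes. In them, log2 fold changes went from -0.13 to 0.0441 for *Bmp7*, from -0.093 to 0.16 for *Id2*, from 0.80 to 0.90 for *Nog* and from -0.90 to -0.25 for *Smad6*, and *Bmp7* was above 0 without the first WT library or the second *Patz1* KO library and *Id2* below 0 without the second *Patz1* KO library. Each such fit leaves a genotype with 1 library, which is assumed to vary like the others. The median prior degrees of freedom, edgeR's weight on the spread shared across genes, were 15.7 in the main fit. They were infinite in these fits, with the replicate block and with no filter. The p values of those settings rest on the shared spread and are not comparable with those of the main fit. The labels give both genotypes replicate numbers 1 and 2 and name no batch. Deviations of same-numbered libraries correlated at r = 0.041 over genes, so the numbers were not taken as pairs. With the replicate number as a block 7361 genes and 7 members were called, and no member other than *Smad6* changed its call. The causes of these differences were not tested beyond what is stated. Counts limit *Bmp2*, *Fst*, *Bmp4* and *Nog* most, and 5 of the 10 members had at least 100 counts in every library.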
